A study of Mus musculus with 6 samples.

Results

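The citric acid cycle enzymes described here are 9 genes, Cs, Idh3a, Idh3b, Idh3g, Ogdh, Dlst, Suclg1, Fh1 and Mdh2. They were taken by name as enzymes of the mitochondrial cycle, with the succinate dehydrogenase complex left out of the choice. No measured value entered the rule, but earlier results of these data were known when the genes were chosen. Other enzymes of the cycle, among them Idh2, Dld, Suclg2 and Sucla2, are not in this set and are described further below. All 9 were found among the 23504 genes of the table by their Ensembl identifiers, and all 9 passed the filter on low values.

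RNA was sequenced from BMMs, macrophages grown in M-CSF from the bone marrow of C57BL/6 mice that were 6 to 8 weeks old and, by the study's methods, male. In 3 libraries the cells had received DASA-58, a small molecule that activates pyruvate kinase M2, the enzyme that makes pyruvate at the end of glycolysis, and in 3 libraries they had received DMSO, its solvent. RNA was taken after 3 days, and the experiment asked how DASA-58 acts on osteoclast formation at the level of transcripts. According to the study's results section, cells of either group were given RANKL, the ligand that drives macrophages toward osteoclasts, whereas its methods name RANKL beside the DASA-58 cells and leave it open for the DMSO cells. The methods write DASA-48 where the sample labels write DASA-58, and no concentration is given for these libraries. No source says whether the libraries came from separate mice or cultures, so the tests measure the spread between these libraries, which may be technical.

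In the citric acid cycle, acetyl groups from pyruvate, fatty acids and amino acids are joined to oxaloacetate and oxidised in the mitochondrial matrix. The electrons leave on NADH and FADH2 and feed the respiratory chain. The cycle also gives up citrate for lipid synthesis, and in macrophages a precursor of itaconate. Osteoclasts are cells rich in mitochondria.

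The values were FPKM, fragments per kilobase of exon scaled to the library's fragment total, and the recovered depth lay between 18191560 and 18968556 fragments. Groups were compared on log2(FPKM + 1) with limma over the 10965 genes that averaged 1 FPKM or more, and a gene was called lower or higher at a Benjamini-Hochberg adjusted p under 0.05. SE is the standard error of a log2 fold change. Of all these genes, 7.28% were called lower and 4.24% higher with DASA-58. Of the calls 63.2% were lower as deposited, whereas 45.8% were lower after centring on the median, 45.9% with trimmed mean scaling and 49.5% with quantile normalization. The median log2 fold change of all tested genes lay between -0.04 and -0.00078 under all scalings. All 6 osteoclast genes used as a check were lower, with summed levels of 735 to 790 FPKM under DMSO and 428 to 445 FPKM under DASA-58. Of 8 macrophage markers 3 were higher and 1 was lower, with sums of 16412 to 17255 FPKM and 17342 to 19651 FPKM. Lyz2, which was not called (limma adjusted p = 0.11) and overlapped between the groups, made up most of these sums, with 14701 to 17767 FPKM. Of 8 neutrophil markers, 7 of which were tested, 4 were lower, with sums of 174 to 177 FPKM and 137 to 143 FPKM, and Ly6g was at most 0.0583 FPKM in any library. Of the markers of T and NK cells, B cells, stromal cells and erythroid cells, 5 were tested with limma and 0 were called (1 at an unadjusted p under 0.05), and the sums of these lists reached at most 6.46, 2.38, 37.2 and 0.287 FPKM in any library. All of the osteoclast genes and some of the macrophage and neutrophil genes thus differed between the groups, the macrophage genes in both directions. The part of these genes in the results on the cycle enzymes was not tested. In bulk RNA, fewer cells of a type and less RNA per cell cannot be told apart.

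Transcripts of several cycle enzymes were lower with DASA-58, and 0 of 9 were higher in the limma test, at an unadjusted p under 0.05 or with voom. Of the 9 genes, 5 fell, namely Dlst, Mdh2, Cs, Ogdh and Idh3g, against 7.28% of all tested genes. The other 4, Idh3a, Idh3b, Suclg1 and Fh1, did not pass the test. The count of 5 became 3 when any library was left out in turn, except DMSO replicate 2, without which it was 4, and it was also 3 with centring on the median, trimmed mean scaling or quantile normalization. Cs, Dlst and Mdh2 stayed called each time. All 9 log2 fold changes were below 0, or 8 with quantile normalization, where Fh1 turned, beside 59.8% of those of all tested genes. Their median was -0.14 beside -0.03 over all tested genes. In 7 of the 9 the highest DASA-58 value was still under the lowest DMSO value, which was the case for 21.6% of all tested genes. Among the 2190 genes with mean levels inside the range spanned by the 9 cycle enzymes, 12.0% were called lower and 28.4% did not overlap in that direction. The changes were small: the DASA-58 means lay between 82.8% and 97.8% of the DMSO means, and none of the 9 had a log2 fold change beyond 1, as 0.0456% of all tested genes did with a call.

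**Figure D1:**
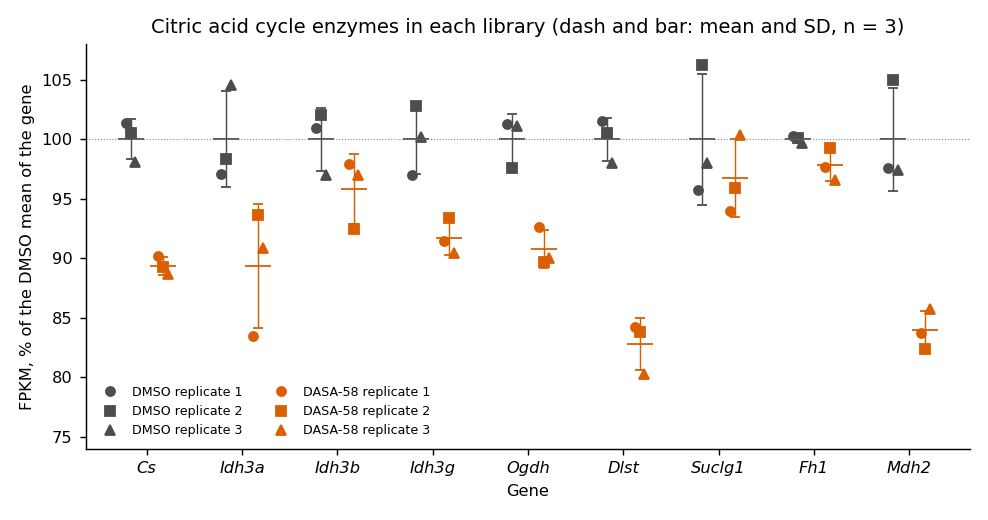
FPKM of each citric acid cycle enzyme in each of the 6 libraries, as percent of the gene's DMSO mean, with DMSO in grey and DASA-58 in orange, a marker shape for each replicate, and dash and bar for the mean and SD. The DASA-58 libraries of Dlst and Mdh2, with means at 82.8% and 83.9%, lie apart from the DMSO libraries, whereas those of Idh3b and Suclg1 overlap with DMSO.

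Citrate synthase, encoded by Cs, opens the cycle by joining acetyl-CoA to oxaloacetate. Cs (ENSMUSG00000005683, chromosome 10, 128337734 to 128362479, plus strand, GRCm38 in GENCODE) stood at 61.2, 60.7 and 59.3 FPKM in the DMSO libraries and at 54.5, 53.9 and 53.6 FPKM in the DASA-58 libraries. Both groups were tight, and they did not overlap. The mean fell from 60.4 ± 1.01 to 54.0 ± 0.454 FPKM (SD, n = 3 each), which is 89.4% of DMSO. The log2 fold change was -0.16 (SE 0.027, limma adjusted p = 0.0097), from 5669 to 6617 fragments per library. Cs was called lower under all 18 alternatives tried.

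The NAD-dependent isocitrate dehydrogenase, which turns isocitrate into α-ketoglutarate, is built from a catalytic subunit, encoded by Idh3a, and from subunits encoded by Idh3b and Idh3g. Idh3a (ENSMUSG00000032279, chromosome 9, 54586334 to 54604661, plus strand) had 20.5, 20.8 and 22.1 FPKM under DMSO and 17.6, 19.8 and 19.2 FPKM under DASA-58. The groups did not overlap, but DASA-58 replicate 1 lay apart from the other DASA-58 libraries. The log2 fold change of Idh3a was -0.16 (SE 0.050, limma adjusted p = 0.086), close to that of Cs but with a larger error. It was called lower under 1 of 18 alternatives, voom on recovered fragments (adjusted p = 0.010, limma).

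Idh3b (ENSMUSG00000027406, chromosome 2, 130279309 to 130284547, minus strand) had 51.4, 51.9 and 49.4 FPKM under DMSO and 49.9, 47.1 and 49.4 FPKM under DASA-58. The highest DASA-58 library was above the lowest DMSO library. The log2 fold change was -0.06 (SE 0.035, limma adjusted p = 0.30). In the annotation, 5 of its 3422 exon bases are shared with Nop56 on the opposite strand, and no exon of the other 8 genes overlaps another gene.

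Idh3g (ENSMUSG00000002010, chromosome X, 73778963 to 73786897, minus strand) had 58.0, 61.5 and 59.9 FPKM under DMSO and 54.7, 55.8 and 54.1 FPKM under DASA-58. Every DASA-58 library was lower, with a mean at 91.7% of DMSO. The log2 fold change of -0.12 passed the test narrowly (SE 0.031, limma adjusted p = 0.045). The call was lost under 13 of 18 alternatives, among them each of the 6 in which a library was left out (adjusted p between 0.056 and 0.14, limma).

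The level of Idh3g relative to Idh3b was 1.18 ± 0.0428 with DMSO and 1.13 ± 0.0522 with DASA-58 (SD, n = 3 each), and these ratios overlapped between the groups (exact permutation test, two-sided, p = 0.30). Relative to Idh3a, Idh3b was at 2.42 ± 0.155 and 2.60 ± 0.224 (exact permutation test, two-sided, p = 0.40) and Idh3g at 2.84 ± 0.124 and 2.92 ± 0.162 (p = 0.70). A difference between the subunits in their response was not detected by these ratios, which does not show that they moved alike. These ratios are per all-exon length, and per coding length Idh3g lay below Idh3b (137 and 151 with DMSO). With 3 libraries in each group, 0.10 is the smallest p of this test.

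The α-ketoglutarate dehydrogenase complex makes succinyl-CoA and consists of the dehydrogenase encoded by Ogdh, the succinyltransferase encoded by Dlst, which carries lipoic acid, and the dihydrolipoamide dehydrogenase encoded by Dld. Ogdh (ENSMUSG00000020456, chromosome 11, 6291633 to 6356642, plus strand) had 39.9, 38.5 and 39.9 FPKM under DMSO and 36.5, 35.3 and 35.5 FPKM under DASA-58. The groups did not overlap, and the mean was at 90.8% of DMSO. Its log2 fold change was -0.14 (SE 0.031, limma adjusted p = 0.029). The call was lost under 11 of 18 alternatives (adjusted p up to 0.099, limma), among them those without DMSO replicate 1 or 3 and without each DASA-58 replicate in turn.

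Dlst (ENSMUSG00000004789, chromosome 12, 85110833 to 85134845, plus strand) stood at 82.8% of DMSO, beside 83.9% for Mdh2, and which of these changed more differed between alternatives. It had 23.4, 23.2 and 22.6 FPKM under DMSO and 19.4, 19.3 and 18.5 FPKM under DASA-58, well apart. The mean fell from 23.0 ± 0.416 to 19.1 ± 0.505 FPKM (SD, n = 3 each). The log2 fold change was -0.26 (SE 0.034, limma adjusted p = 0.0034), and Dlst was called lower under all 18 alternatives.

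The subunits of this complex were also compared within each library. The level of Dlst relative to Ogdh was 0.585 ± 0.0177 with DMSO and 0.533 ± 0.0128 with DASA-58 (SD, n = 3 each). Dld, which is shared with the pyruvate dehydrogenase complex, had 42.3 ± 1.81 and 40.9 ± 0.929 FPKM and a log2 fold change of -0.05 (SE 0.038, limma adjusted p = 0.45). These are ratios of values per all-exon length, and the order of the subunits depends on that length. With the same fragments divided by the length of the principal transcript, Dlst stood above Ogdh with DMSO (79.7 and 52.1). Dlst also stood above Ogdh per coding length (162 and 70.1). Dld relative to Dlst was at 1.84 ± 0.113 with DMSO and 2.14 ± 0.102 with DASA-58. For both ratios the groups did not overlap (exact permutation test, two-sided, p = 0.10 and 0.175 when adjusted over the 14 ratios computed).

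Succinyl-CoA synthetase, the step that makes GTP or ATP, pairs the subunit encoded by Suclg1 with that of Suclg2 or Sucla2. Suclg1 (ENSMUSG00000052738, chromosome 6, 73248382 to 73276911, plus strand) had 19.4, 21.6 and 19.9 FPKM under DMSO and 19.1, 19.5 and 20.4 FPKM under DASA-58. The groups overlapped, and the log2 fold change was -0.04 (SE 0.047, limma adjusted p = 0.59).

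Of the partners of Suclg1, Suclg2 was called and Sucla2 was not. Suclg2, the GTP-forming partner, had 10.8, 11.3 and 11.6 FPKM under DMSO and 9.87, 9.76 and 9.65 FPKM under DASA-58, and it fell with a log2 fold change of -0.19 (SE 0.039, limma adjusted p = 0.022). Sucla2, the ATP-forming partner, had 20.2 ± 1.16 and 19.9 ± 0.279 FPKM (SD, n = 3 each), and its log2 fold change was -0.01 (limma adjusted p = 0.88). The level of Sucla2 relative to Suclg2 was 1.79 ± 0.0431 with DMSO and 2.04 ± 0.0490 with DASA-58 (SD, n = 3 each), without overlap (exact permutation test, two-sided, p = 0.10, adjusted 0.175). The call of Suclg2 was lost under 6 of 18 alternatives, the replicate block and 5 of the 6 in which a library was left out, all but that without DMSO replicate 1 (adjusted p up to 0.077, limma).

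Fumarase, encoded by Fh1, makes malate from fumarate. Fh1 (ENSMUSG00000026526, chromosome 1, 175600374 to 175625635, minus strand) had 25.9, 25.9 and 25.8 FPKM under DMSO and 25.3, 25.7 and 25.0 FPKM under DASA-58. The groups did not overlap, but the mean was at 97.8% of DMSO, and the log2 fold change was -0.03 (SE 0.029, limma adjusted p = 0.55). The DMSO libraries spread by 0.317% of their mean, which is less than the counting error of 2.51% that 1584 fragments give. With quantile normalization the log2 fold change turned to 0.0034.

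Malate dehydrogenase, encoded by Mdh2, closes the cycle by remaking oxaloacetate. Mdh2 (ENSMUSG00000019179, chromosome 5, 135778480 to 135790398, plus strand) had 82.2, 88.5 and 82.1 FPKM under DMSO and 70.5, 69.4 and 72.2 FPKM under DASA-58. Even the lowest DMSO library was well above the highest DASA-58 library. The mean fell from 84.3 ± 3.66 to 70.7 ± 1.40 FPKM (SD, n = 3 each). The log2 fold change was -0.25 (SE 0.037, limma adjusted p = 0.0054). Mdh2 was called under 17 of 18 alternatives, the exception being the model without variance shrinkage (adjusted p = 0.055).

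Fh1 and Mdh2 are neighbours in the cycle. The ratio of Mdh2 to Fh1, chosen after the values were seen and not tested, was 3.17, 3.42 and 3.18 with DMSO and 2.79, 2.71 and 2.89 with DASA-58. For Cs relative to Mdh2, the pair that meets at oxaloacetate, the ratios were 0.718 ± 0.0292 and 0.764 ± 0.0190 (SD, n = 3 each) and overlapped (exact permutation test, two-sided, p = 0.20).

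**Figure D2:**
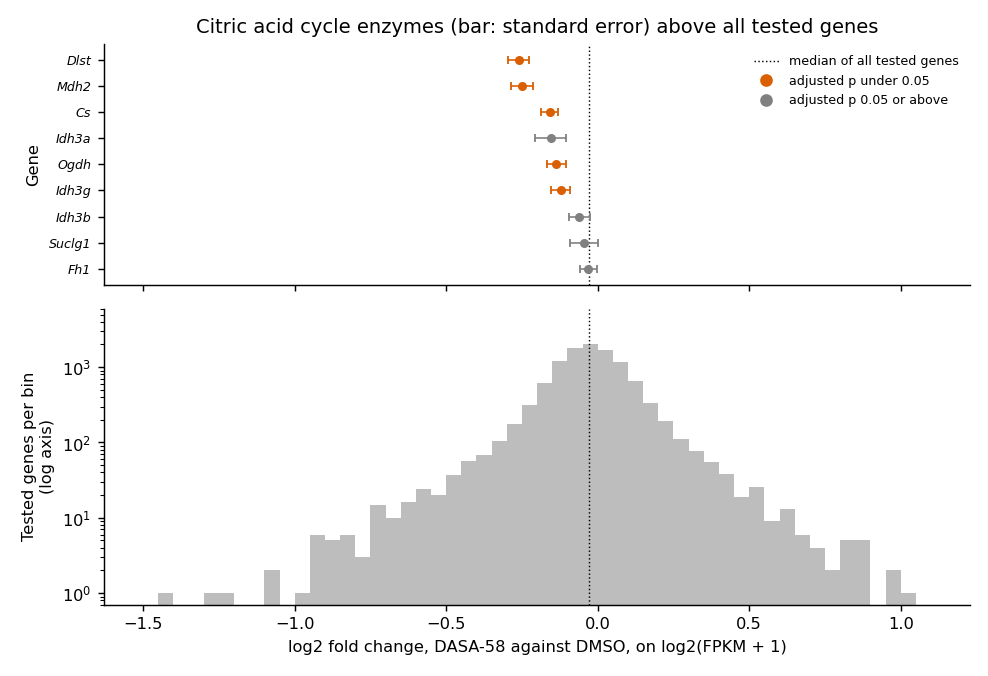
Above, the log2 fold change of each citric acid cycle enzyme with its standard error, orange where the adjusted p is under 0.05; below, on the same axis, the number of all 10965 tested genes in each bin. The 9 genes lie between -0.26 for Dlst and -0.03 for Fh1, all left of the dotted median of all tested genes in the values as deposited (Fh1 turns above 0 with quantile normalization).

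Summed over the 9 genes, the level was 382, 392 and 381 FPKM in the DMSO libraries and 347, 346 and 348 FPKM in the DASA-58 libraries. The DASA-58 sum was at 90.1% of DMSO. Each of the 9 genes lies on a chromosome of its own, and each library held between 1584 and 6617 fragments of each gene. The spread between replicates was 0.317% to 5.86% of the mean, beside a counting error, from the number of fragments alone, of 1.23% to 2.51%.

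The order of the levels with DMSO was Mdh2, Cs, Idh3g, Idh3b, Ogdh, Fh1, Dlst, Idh3a and Suclg1, from 84.3 down to 20.3 FPKM. Cs and Idh3g overlapped in both groups, as did Idh3a and Suclg1, and Dlst and Idh3a overlapped with DASA-58 but not with DMSO. This order depends on the gene length. The deposited values use all annotated exons of a gene, which for Dlst are 9559 bases, whereas its principal transcript has 2764 bases and a coding length of 1362 bases. Per length of the principal transcript, Dlst rose from the 7th to the 5th place, at 79.7 ± 1.44 fragments per kilobase, scaled in the same way, with DMSO, and per coding length to the 3rd, at 162 ± 2.92 (SD, n = 3 each). Fh1 moved from the 6th place to the 9th under both, at 33.3 ± 0.106 and 57.7 ± 0.183. Mdh2 stayed first under all 3 lengths. Idh3a stayed below Idh3b and Idh3g under all 3, with 97.5 ± 3.91, 151 ± 4.01 and 137 ± 3.99 per coding length. The fragments were those of all annotated exons under each length. The values per other length are therefore not levels of the principal transcript or its coding part alone. These other lengths were chosen after seeing the data and do not change any comparison between the groups.

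**Figure D3:**
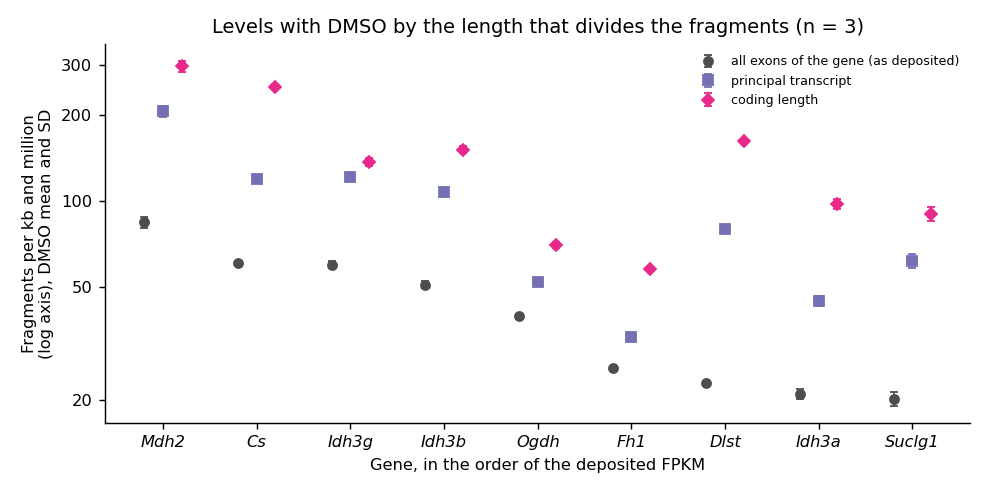
Mean and SD of the level of each enzyme in the 3 DMSO libraries, on a log axis, with the fragments divided by the length of all exons (as deposited), of the principal transcript, or of its coding part. The fragments are those of all exons in each case. Mdh2 is highest under each length, while Dlst climbs past other genes and Fh1 drops to the lowest place under the other lengths.

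Promoter sequence is shown for Mdh2, Cs and Ogdh, which were called lower, and for Fh1, which did not pass the test. Their windows held a searched motif, as did those of Idh3b and Idh3g, which are not shown. In Mdh2 this was only a motif searched after the windows were seen. RefSeq windows on GRCm38.p6, reaching from 250 bases before to 50 bases after an annotated start, were found for 8 of the 9 genes, all but Idh3a. The 120 bases just before a start are given 5′ to 3′ on the strand of the gene, for Mdh2 at chr5:135778529-135778648 (plus strand), Cs at chr10:128337607-128337726 (plus strand), Ogdh at chr11:6292438-6292557 (plus strand, before 1 of its 6 annotated starts) and Fh1 at chr1:175625636-175625755 (minus strand). The starts are those of RefSeq and can differ from the GENCODE coordinates given above. The stretches of Mdh2 and Ogdh lie after the GENCODE start of the gene (135778480 and 6291633), and so do their matches in capitals. Capitals mark matches, on either strand, to the motifs named after the sequences.
Mdh2: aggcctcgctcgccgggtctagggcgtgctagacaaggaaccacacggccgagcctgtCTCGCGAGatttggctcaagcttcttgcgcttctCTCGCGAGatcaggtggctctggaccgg
Cs: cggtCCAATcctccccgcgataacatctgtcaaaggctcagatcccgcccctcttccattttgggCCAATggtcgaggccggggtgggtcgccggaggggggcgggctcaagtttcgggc
Ogdh: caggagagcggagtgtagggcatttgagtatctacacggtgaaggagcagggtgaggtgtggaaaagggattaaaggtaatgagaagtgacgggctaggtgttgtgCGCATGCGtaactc
Fh1: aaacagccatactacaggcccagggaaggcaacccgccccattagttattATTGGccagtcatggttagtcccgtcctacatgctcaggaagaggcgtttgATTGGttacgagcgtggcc

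The letters CGCATGC, part of the core that NRF1, a regulator of mitochondrial genes, is known to bind, were found in the windows of 1 of the 8 genes, Ogdh, and in 4.01% of all 27025 genes with a window. In Ogdh the match on the other strand overlaps it, which makes the run of capitals. The letters AAGGTCA, the core letters that estrogen-related receptors are known to bind, were found in 1 of 8, again Ogdh and in another of its windows, and in 5.38% of all genes. CCAAT was found in 4 of 8, namely Cs, Idh3b, Ogdh and Fh1, and in 41.1% of all genes. TCGCGAG, a motif searched only after these windows were seen, was found in 2 of 8, Mdh2 and Idh3g, and in 2.22% of all genes; in Mdh2 it is read on both strands at the same places. The CCAAT letters stood before the start of both Cs, which fell, and Fh1, which did not pass the test. The windows of Dlst, also called lower, and Suclg1 held none of the 4 motifs. The motifs were searched on both strands, and a match is a description of the letters only.

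The genes around the cycle were read from 6 lists, of which 57 genes were in the table and 52 were tested. Together 13 were called lower and 3 higher, beside 7.28% and 4.24% of all tested genes. With a library left out, the lower calls numbered 2 to 7, fewest without DASA-58 replicate 3, and the higher calls 1 to 3, fewest without DASA-58 replicate 1. Of the other mitochondrial cycle enzymes, 5 of 10 tested were lower and 0 higher (limma, 0 higher also at an unadjusted p under 0.05), with a median log2 fold change of -0.11. Among them were Suclg2, Idh2, Sdhb and Sdha. Idh2, the NADP-dependent isocitrate dehydrogenase of mitochondria, had 55.4 ± 1.08 and 49.9 ± 1.78 FPKM (log2 fold change -0.15, adjusted p = 0.032, limma). Sdha and Sdhb, the catalytic subunits of complex II, fell by 0.12 and 0.13 on the log2 scale (adjusted p = 0.025 and 0.033, limma). The membrane subunits Sdhc and Sdhd did not pass (log2 fold change -0.01 and -0.07, adjusted p = 0.81 and 0.14, limma). Each of the 5 lower calls of this list was lost in 4 or more of the 6 fits in which a library was left out.

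At the entry of pyruvate, 2 of 13 tested genes fell and 2 rose. The falling ones belong to the pyruvate dehydrogenase complex, which makes acetyl-CoA. Pdhb had 32.7, 33.6 and 32.8 FPKM under DMSO and 27.3, 28.4 and 26.6 FPKM under DASA-58, without overlap. Its log2 fold change was -0.26 (SE 0.035, limma adjusted p = 0.0036), and it was called under all 18 alternatives. Dlat fell by 0.16 on the log2 scale (adjusted p = 0.041, limma), a call that was lost under 13 of 18 alternatives, each left-out library included. Pdha1, which forms the E1 component together with Pdhb, did not pass (log2 fold change -0.04, adjusted p = 0.50, limma).

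The genes that rose act beside this complex. Pcx, pyruvate carboxylase, which makes oxaloacetate from pyruvate, had 3.41, 3.07 and 3.21 FPKM under DMSO and 4.68, 4.07 and 4.20 FPKM under DASA-58. It stood at 134% of DMSO (log2 fold change 0.33, SE 0.063, limma adjusted p = 0.016), and without DASA-58 replicate 1 its adjusted p was 0.052. Pdp1, a phosphatase that activates pyruvate dehydrogenase, was at 126% of DMSO (log2 fold change 0.28, adjusted p = 0.013, limma), with an adjusted p of 0.053 without DASA-58 replicate 3. The kinases Pdk1, Pdk2 and Pdk3 were not called, and Pdk4 was at most 0.219 FPKM in any library and was not tested.

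Of the cytosolic counterparts, 1 of 7 fell and 1 rose. Me1, malic enzyme, which makes pyruvate and NADPH from malate, had 4.62, 3.83 and 3.84 FPKM under DMSO and 5.87, 5.41 and 5.58 FPKM under DASA-58. It stood at 137% of DMSO (log2 fold change 0.38, adjusted p = 0.013, limma), with an adjusted p of 0.052 without DASA-58 replicate 1. Got1, the cytosolic aspartate aminotransferase, fell by 0.18 on the log2 scale (adjusted p = 0.013, limma), with an adjusted p of up to 0.054 without DMSO replicate 1 or DASA-58 replicate 3. Idh1, Mdh1, Acly and the citrate carrier Slc25a1 were among the genes not called.

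Within each library, the mitochondrial enzyme was set against its cytosolic counterpart, a ratio that does not depend on a scaling factor of the library. Mdh2 relative to Mdh1 was 1.08, 1.15 and 1.06 with DMSO and 0.976, 0.963 and 0.981 with DASA-58, lower in each DASA-58 library. Idh2 relative to Idh1 was 0.438 ± 0.0122 and 0.386 ± 0.0329 (SD, n = 3 each). Cs relative to Acly, the cytosolic enzyme that splits citrate again, was 1.57 ± 0.0553 and 1.45 ± 0.0266. For these 3 ratios the groups did not overlap (exact permutation test, two-sided, p = 0.10 each, adjusted 0.175 over 14 ratios). For single genes, groups without overlap, in either direction, made up 33.4% of all tested genes.

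In the list of glutamine and anaplerosis 3 of 11 tested genes fell and 0 rose in the limma test (2 higher at an unadjusted p under 0.05, Pck2 and Slc25a12). Slc1a5, a glutamine transporter of the cell surface, had 32.3, 31.5 and 30.3 FPKM under DMSO and 24.1, 24.1 and 22.4 FPKM under DASA-58. Its log2 fold change was -0.40 (SE 0.040, limma adjusted p = 0.0011), and it was called under all 18 alternatives. Got2, the mitochondrial aspartate aminotransferase, and Slc25a13, an aspartate and glutamate carrier, fell by 0.16 and 0.18 on the log2 scale (adjusted p = 0.025 and 0.044, limma), and these calls were lost under 10 and 12 of 18 alternatives. Glud1, which makes α-ketoglutarate from glutamate and had the highest level of the list, was not called (log2 fold change -0.02, adjusted p = 0.69, limma).

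Of the genes of itaconate and 2-hydroxyglutarate, 1 of 5 fell. Sucnr1, the receptor for extracellular succinate, had 5.52, 5.24 and 4.59 FPKM under DMSO and 3.85, 3.85 and 3.54 FPKM under DASA-58 (log2 fold change -0.36, adjusted p = 0.015, limma). The call was lost under 4 of 17 alternatives, among them those without DMSO replicate 1 and without DASA-58 replicate 3. Acod1, which makes itaconate, was at 5.24 ± 0.830 and 5.18 ± 0.170 FPKM (SD, n = 3 each) and was not called. Of the genes of lipoylation and cofactors, 1 of 6 tested fell, Sdhaf2, an assembly factor of complex II (log2 fold change -0.16, adjusted p = 0.036, limma), and its call was lost with each library left out. Lias, which makes the lipoic acid that Dlst and Dlat carry, was not called (log2 fold change -0.09, adjusted p = 0.32, limma).

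**Figure D4:**
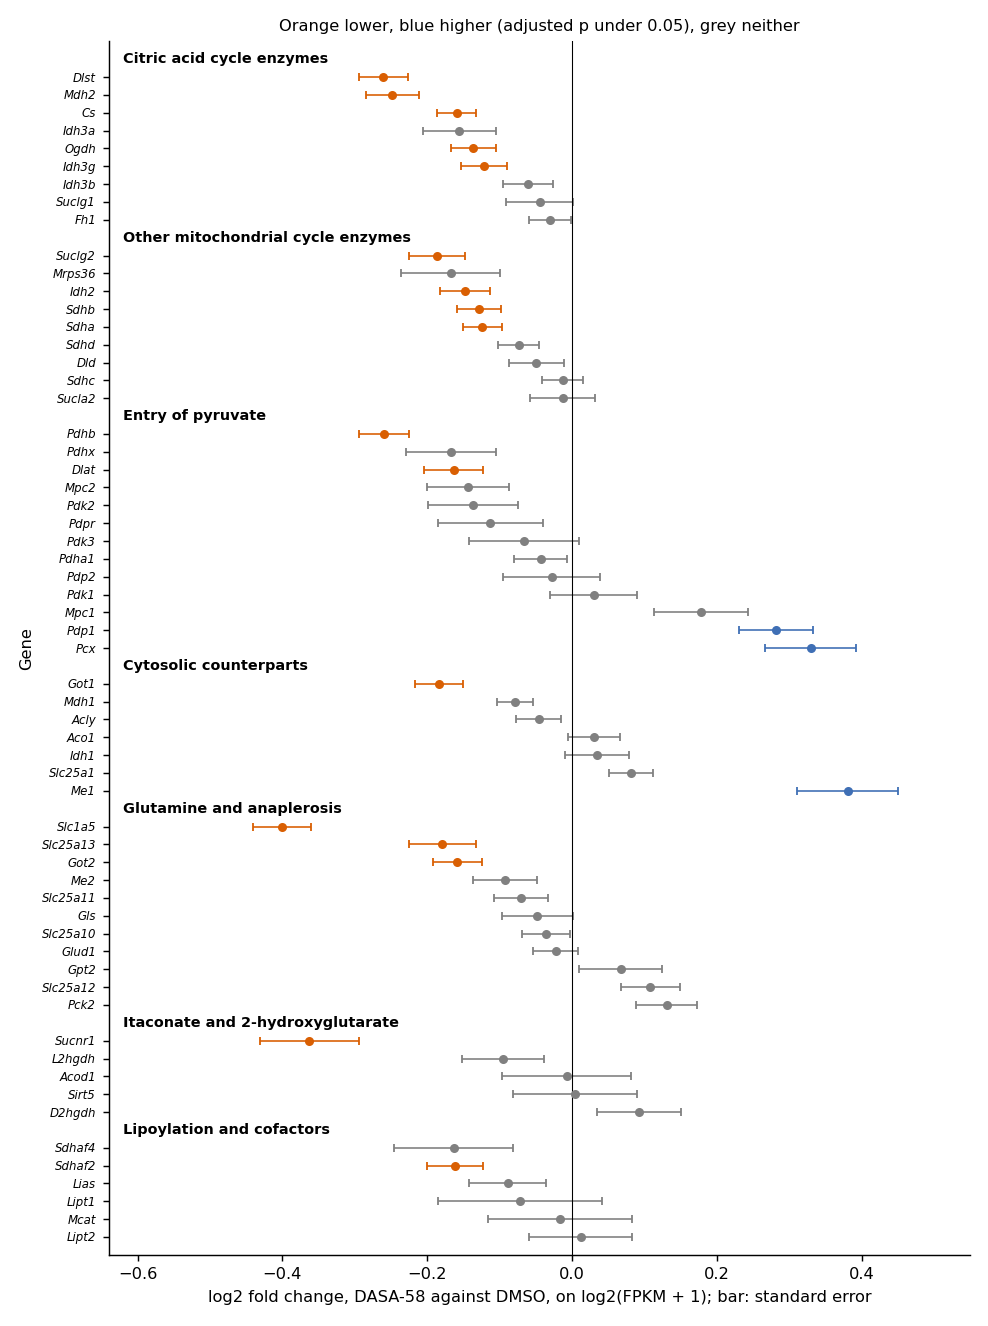
Log2 fold change of tested genes of the cycle and of the 6 lists around it, with its standard error, orange for lower, blue for higher and grey for neither at an adjusted p under 0.05. In the values as deposited the cycle enzymes and the other mitochondrial enzymes lie left of 0, while Pcx, Pdp1 and Me1 lie right. Fh1 and Sucla2 turn with quantile normalization, and Sucla2 also with centring and the trimmed mean. Sdhc, also near 0, was not followed under these scalings.

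Other mitochondrial proteins served as a comparison, chosen by symbol after the values were seen and not tested as sets. Of 74 tested genes of the respiratory chain and ATP synthase, 17 were lower and 0 higher (limma, 0 higher also at an unadjusted p under 0.05), and their log2 fold changes had a median of -0.12. Of 76 tested mitochondrial ribosomal proteins, 5 (6.58%) were lower, a share near the 7.28% of all tested genes, and 0 were higher (limma, 0 higher also at an unadjusted p under 0.05), with a median of -0.10. Mrps36 was counted here by its symbol and also in the list of other mitochondrial cycle enzymes. The median of the cycle enzymes, -0.14, lay beside those of both lists, and no difference between these groups of genes was tested. In the values as deposited, 71 of the 74 and 72 of the 76 log2 fold changes were below 0, beside 59.8% of all tested genes. For 38 of the 74 and 34 of the 76 every DASA-58 library was under every DMSO library, beside 21.6% of all tested genes. A shift to lower values was thus not particular to the cycle enzymes.

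The mean profile of the 9 genes over the 6 libraries was also compared with that of each of 2838 other genes at a mean of at least 20 FPKM, by the root mean square distance of the centred log2(FPKM + 1) values. The closest were Rpl4, Slc25a5, Actb, Ncbp2 and Rnf114, at distances of 0.0094 to 0.016, beside a median distance of 0.075. Of these, Slc25a5 encodes a mitochondrial exchanger of ADP and ATP, while Rpl4 and Actb encode a ribosomal protein and actin.

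Pkm, the gene of the enzyme that DASA-58 activates, was at 575 ± 9.70 FPKM under DMSO and 575 ± 6.09 FPKM under DASA-58 (SD, n = 3 each). It was not called (log2 fold change -0.00074, adjusted p = 0.99, limma). The value covers all exons of the gene, so different transcripts of Pkm were not told apart.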

How the data were processed

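The authors deposited 1 table of FPKM values for 23504 genes, and the submitters' processing notes name HISAT2 2.1.0, HTSeq 0.6.0 and the build mm8, without saying how each was used. The annotation and the use of strand are not given in the sources used here. All value columns were mapped to samples by title, with 0 left over. With the exon lengths of GENCODE M21, whole fragments were recovered for 21373 genes (90.9%, within 0.02 fragments), all 9 cycle enzymes included. Symbols were matched for 23455 identifiers. Coordinates are those of GENCODE on GRCm38.

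The comparison of the groups used limma 3.58.1 under R 4.3.3 (lmFit, eBayes with a trend, Benjamini-Hochberg adjustment) on log2(FPKM + 1), which understates the change of low genes. Ratios within a library were tested with exact permutation tests in SciPy 1.17.1. Tables and plots were made with numpy 2.4.6, pandas 2.3.3, matplotlib 3.10.9 and Python 3.11.15. The fit was tested on simulated data whose changes were larger than those of the 9 enzymes, so it was not tested at changes of their size. The genes and lists were chosen with earlier results of these data known. Named were all 9 enzymes, called genes of the lists, the highest gene of each list, and genes in a ratio. Genes of the lists named beside these (Sdhc, Mrps36, Pdha1, Pdk1 to Pdk4, Slc25a1, Slc25a12, Pck2 and Lias) were chosen after their values were seen. In the lists, 1 gene and its ratio enter the counts but are not reported here. The alternatives were other pseudocounts, filters, scalings and variance models, voom on recovered fragments, the replicate block, and each library left out.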

Additional observations from a re-analysis of the deposited data

How the results depend on the processing

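Of the 5 cycle enzymes called lower, 3 remained, Cs, Dlst and Mdh2, when libraries were centred on the median, scaled by a trimmed mean or quantile normalized, when the variance had no trend and with the replicate block; without variance shrinkage 2 remained, Cs and Dlst. With a library left out the count was 3 to 4. It was 6 with voom and 0 were higher in any fit. The count over all genes, 798 lower, was 504 with centring, 508 with the trimmed mean, 372 without a filter, 515 without a trend, 314 without shrinkage, and 385 to 604 with a library left out. The higher genes, 465, were 257 without a filter, 227 without shrinkage and 273 to 373 with a library left out. Of the genes around the cycle, 13 lower, the count was 5 with centring, the trimmed mean, no trend or the replicate block. It was 6 without a filter or without shrinkage, and 2 to 7 with a library left out. The 3 higher were 1 without a filter, 0 without shrinkage and 1 to 3 with a library left out. At a mean of at least 5 FPKM the count was 1, Pdp1, since Pcx and Me1 fell below that filter and were not tested. The cause of the other changes was not tested.

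Some values near 0 changed sign, none of them called. With quantile normalization the log2 fold change was 0.0034 for Fh1, 0.015 for Sucla2 and 0.022 for Acod1; with centring 0.014 for Sucla2, 0.0039 for Glud1 and 0.019 for Acod1; with the trimmed mean 0.014 for Sucla2, 0.0055 for Glud1 and 0.016 for Acod1. With each library left out it ranged from -0.056 to 0.022 for Sucla2 and from -0.070 to 0.099 for Acod1, and the difference in log2 ratio from -0.0062 to 0.071 for Idh3g to Idh3a, from -0.0016 to 0.084 for Sucla2 to Suclg1 and from -0.013 to 0.041 for Idh2 to Idh3a. The same-numbered libraries did not deviate together (correlations of -0.016, 0.016 and -0.016), so the numbers were not taken as pairs, and no library correlated best with its own number; the block changed the calls of Ogdh, Idh3g and genes around the cycle as given above. Each cycle enzyme had at least 1584 fragments in each library. For Fh1, whose mean was at 97.8% of DMSO, the counting error of 2.51% at that number was no smaller than the change. How far depth limited the calls of such small changes was not tested.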
